A study of Homo sapiens with 5 samples.

Results

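The human nuclear receptor family was followed over 5 arrays. It was taken as 46 listed genes, and its probe sets as all those that the platform annotation assigns to 1 of these genes alone. These were 127 probe sets for 39 genes, out of 41091 probe sets with a single symbol for 19775 genes on the array. NR1D1 was represented only by 3 probe sets that it shares with THRA, and no probe set was matched to HNF4A, NR0B1, NR2F2, NR1H4, NR1H2 or NR1I2, so that 7 members were not measured by a probe set of their own. All probe sets of NR5A2, RARB and PPARG are given in full.

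The nuclear receptors are transcription factors that share a zinc-finger DNA-binding domain and, in most members, a domain that binds a small lipophilic ligand such as a steroid, retinoic acid, a fatty acid or an oxysterol. Many of them bind hexamer half-sites of DNA as dimers with a retinoid X receptor (RXR), others bind as homodimers or, like NR5A2, as monomers, and the bound ligand exchanges corepressors for coactivators. In the pancreas NR5A2 (also LRH-1) acts with acinar transcription factors on digestive enzyme genes, while RARB and PPARG are the receptors of retinoic acid and of fatty acids that are induced by retinoic acid and during fat cell differentiation.

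The samples were 5 populations of MIAPaCa2, an established line of poorly differentiated pancreatic ductal adenocarcinoma (PDAC), each hybridized to 1 Affymetrix array. MP2-α2Δ cells carried the α2 integrin lacking its cytoplasmic domain and grew on collagenI (25 μg/mL). MP2-α9α2 cells carried the α9 ectodomain and transmembrane domain joined to the α2 cytoplasmic domain and were kept on the tenascin FNIII domain (10 μg/mL). Full-length α2, from the same transfection, was carried by MP2-α2/CI cells, which were kept on collagenI (25 μg/mL), and by MP2-α2/TC cells, which were kept on tissue culture plastic. MP2-mock cells carried the vector alone, and the sources used here name neither their substrate nor their drug. The full-length α2 insert was driven by a cytomegalovirus promoter, all populations were under drug selection, and the lines were stable mixed populations and not single clones. G418 was the drug for MP2-α9α2 cells and zeocin that for the α2Δ and α2 populations. Construct, substrate and drug therefore cannot be told apart in the comparison of MP2-α2Δ with MP2-α9α2 cells.

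A single array stands for each population, so that the number of arrays limits precision, differences have no error from replicates, and no p-value is given. Values are read as log2. MP2-α2/CI, MP2-α2/TC and MP2-mock shared 1 minimum (2.24), as did MP2-α2Δ and MP2-α9α2 (2.21), and these were taken as 2 sets of arrays normalized apart. Background on each array, called the floor, was set from 107 probe sets of odorant receptors by their 95th percentile, at 2.21 to 2.27, and 28665 to 30717 probe sets lay above it. A value below the floor was raised to it, so that a difference against the floor is a bound. Of 37 receptor probe sets with a value over 4 in the first set, 8 (21.6%) were identical on its 3 arrays within 1e-06, against 25.0% of all such probe sets. In the second set 12 of 42 (28.6%) were identical on both arrays, against 12.8%. A difference of 0.00 can therefore be an identical value.

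Among markers of the line, KRT8 and KRT18, keratins of simple epithelia, read 14.18 to 14.66 and 14.75 to 15.22 over the 5 arrays, and VIM, the mesenchymal intermediate filament, 15.48 to 15.85. EPCAM, an epithelial adhesion molecule, was above the floor on no array. KRT7 and CDH1, a ductal keratin and E-cadherin, were at or near the floor. The 8 line markers also held the keratin KRT19, and 5 of the 8 exceeded 4 on at least 1 array. KRT19 was not 2-fold apart in any comparison within a set. MUC1, an epithelial mucin, read 7.77 in MP2-α2Δ cells and 5.54 in MP2-α9α2 cells by 207847_s_at, against 9.56 and 8.77 by its brightest probe set, 213693_s_at, and its part in the results was not tested. Of 8 blood cell markers 4 were above the floor on no array, PTPRC and HBB among them, and 0 exceeded 4. Of 10 fibroblast and endothelial markers 5 were above the floor on no array and 2 exceeded 4, COL1A1 at 7.18 to 8.11 and ACTA2 at up to 8.63. None of these 18 marker genes was 2-fold apart in any comparison within a set. The ITGA2 probe set 227314_at read 7.28 in MP2-α2Δ cells, 2.21 in MP2-α9α2 cells and 2.24 in the other 3 populations. Per the study's methods the α2 insert was the coding sequence alone, and probe sets for the 3′ end of the transcript lie outside it, so that they do not check the labels. Discussing the full-length α2 transfectants, the paper states that its arrays identified no α2 expression in any of the cells. The 7.28 read here in MP2-α2Δ cells differs from that statement. ITGA2 205032_at also read 3.28 in MP2-α2Δ cells, and the source of these 2 readings was not tested.

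Sequences around the start sites of the receptor genes show how the family's own binding motifs are placed in the genes followed here. RefSeq promoter windows (GRCh38.p14, 250 bases before to 50 after a start) were available for 41 of the 46 members, as 96 windows. The half-site AGGTCA, searched on both strands, was present in 16 of these 96 windows, for 11 members, and in 13.8% of all 35116 windows. Direct repeats with a spacing of 5 bases, in which each unit was AGGTCA or 1 of its variants GGGTCA and AGTTCA and GGTTCA, the type bound by retinoic acid receptors with RXR, were present in 0.0883% of all windows and in 1 window of the family, that of RARB. Repeats spaced by 1 (0.131% of all windows), 2 (0.0399%) or 4 (0.0854%), the types named for PPAR, retinoic acid and thyroid or liver X receptors, were in 0 windows of the family. The same held for the extended half-site of NR5A2, spelled TCAAGGTCA, TCAAGGCCA, CCAAGGTCA or CCAAGGCCA and found in 1.8% of all windows, of which the forms ending in AGGTCA also count as half-sites. A match is a description of letters, and binding was not measured. The RARB window at chr3:25428013-25428312 (plus strand) is printed with its repeat, 53 to 37 bases before the start, in capitals, and an NR5A2 window at chr1:200027460-200027759 (plus strand) with its AGGTCA, 84 to 79 bases before the start, in capitals.
RARB: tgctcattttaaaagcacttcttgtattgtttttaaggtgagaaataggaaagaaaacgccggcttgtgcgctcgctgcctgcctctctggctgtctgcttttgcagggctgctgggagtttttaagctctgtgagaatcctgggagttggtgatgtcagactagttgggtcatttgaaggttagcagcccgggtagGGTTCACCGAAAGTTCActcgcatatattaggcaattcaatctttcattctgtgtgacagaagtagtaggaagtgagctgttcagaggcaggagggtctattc
NR5A2: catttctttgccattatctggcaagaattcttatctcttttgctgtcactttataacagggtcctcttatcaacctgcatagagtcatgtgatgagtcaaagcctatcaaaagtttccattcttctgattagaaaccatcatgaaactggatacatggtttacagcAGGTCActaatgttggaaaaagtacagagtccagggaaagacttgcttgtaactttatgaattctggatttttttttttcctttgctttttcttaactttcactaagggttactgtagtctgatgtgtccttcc
The repeat in the RARB window consists of GGTTCA and AGTTCA, neither of which is the AGGTCA form. The other NR5A2 window, at chr1:200042341-200042640, held none of these motifs.

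Of the 39 receptor genes measured, 27 had a probe set above the floor on at least 1 array and 12 had none, and 20 had a value over 4. In probe sets, 72 of 127 were above the floor on any array, 47 on all 5 and 55 on none. The genes at the floor on every array were the orphan receptors NR4A2 and NR4A3, the estrogen-related receptors ESRRB and ESRRG, HNF4G, NR0B2, the mineralocorticoid receptor NR3C2, NR1I3, NR2E1, the progesterone receptor PGR, RORB and RXRG. A further 7 were above the floor but never over 4, such as the estrogen receptor ESR1 (2.28 to 2.44) and NR5A1, the closest relative of NR5A2 (2.24 to 2.41). The values that follow are those of single probe sets, whose affinities differ, so that each is compared between arrays and not with another gene.

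Of the receptors, 15 read over 4 on all 5 arrays by the probe set with the highest mean, and 11 reached over 8 on at least 1 array. NR2F1 (COUP-TFI), an orphan receptor that represses many hormone-responsive genes, read 12.61 in MP2-α2Δ, 13.62 in MP2-α9α2, 12.64 in MP2-α2/CI, 12.42 in MP2-α2/TC and 12.24 in MP2-mock cells. Its relative NR2F6 lay between 10.68 and 10.73 on the 5 arrays. NR3C1, the glucocorticoid receptor, read 10.65 in MP2-α2Δ cells and 11.33 in MP2-α9α2 cells and 10.22 in each of the other 3 populations. RXRA, the common dimer partner, read 8.10 in MP2-α2Δ, 8.62 in MP2-α9α2, 8.77 in MP2-α2/CI, 8.77 in MP2-α2/TC and 8.89 in MP2-mock cells. Thus high readings of these 4 receptors were common to all populations. ESRRA, an orphan receptor of mitochondrial genes, ranged between 8.62 and 9.29. NR2C1 and NR2C2, the testicular receptors, ranged between 8.03 and 10.24 and between 7.39 and 9.33, and both read higher in the second set of arrays than in the first. NR1D2 (REV-ERBβ), a heme-binding repressor of the circadian clock, read 9.18 in MP2-α2Δ cells and 9.08 in MP2-α9α2 cells and 6.74 in the other 3 populations. The sets were normalized apart. After quantile normalization, NR2C1 in MP2-α2Δ over MP2-mock differed by 1.51 in place of 2.22. NR2C2 then differed by 0.42 in place of 1.23, and NR1D2 by 1.66 in place of 2.45. The other NR1D2 probe set, 209750_at, differed by -0.69 in place of 0.21.

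**Figure D1:**
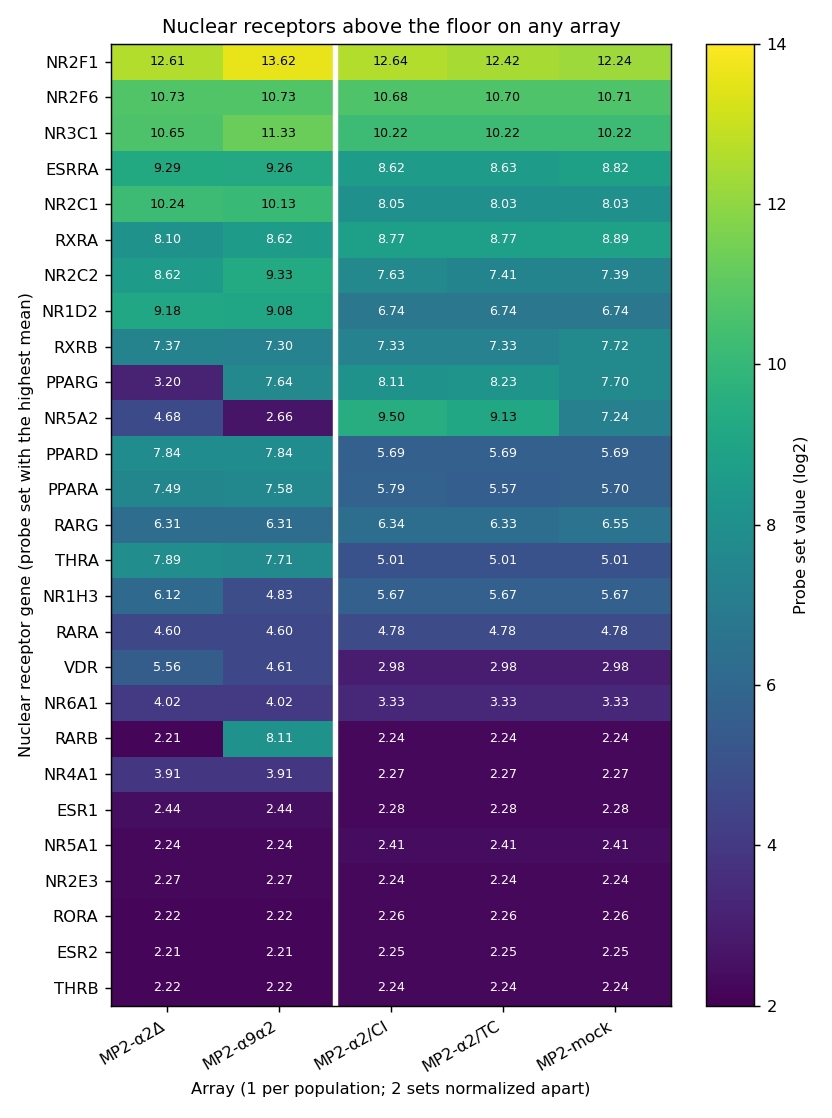
Values of the 27 nuclear receptor genes above the floor on any array (rows, probe set with the highest mean, log2 by colour and number) in the 5 populations (columns, 1 array each, the white line parting the 2 sets of arrays). NR5A2, PPARG and RARB each stand apart in some populations, with RARB at 8.11 in MP2-α9α2 cells and PPARG at 3.20 in MP2-α2Δ cells.

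NR5A2 was the 1 receptor gene with probe sets at least 2-fold apart between the α2 populations and MP2-mock. Its probe set 210174_at read 9.50 in MP2-α2/CI, 9.13 in MP2-α2/TC and 7.24 in MP2-mock cells. The probe set 208337_s_at read 8.76 in MP2-α2/CI, 8.58 in MP2-α2/TC and 6.89 in MP2-mock cells, and 208343_s_at read 7.68 in MP2-α2/CI, 7.18 in MP2-α2/TC and 5.54 in MP2-mock cells. The fourth, 1560469_at, read 5.44 in MP2-α2/CI, 4.55 in MP2-α2/TC and 2.53 in MP2-mock cells, the last near the floor of 2.25. MP2-mock was thus lowest and MP2-α2/CI highest of the 3 by all 4 probe sets. Since these are cell populations, a larger share of cells with the transcript and more transcript per cell cannot be told apart.

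In MP2-α2/TC over MP2-mock cells, the NR5A2 probe sets differed by 1.89 (210174_at), 1.68 (208337_s_at), 1.64 (208343_s_at) and 2.02 (1560469_at) on the log2 scale, which are folds of 3.72, 3.21, 3.12 and 4.06. With the floor set at 4 that of 1560469_at was 0.55, under 2-fold, and the other 3 were the same. Over all 29885 probe sets above the floor on either array, 0.214% reached 2-fold higher and 0.248% lower. Of 60 such receptor probe sets, 4 were higher and 0 lower, all 4 being those of NR5A2. By size these 4 were the 9th, 14th, 16th and 8th highest of 29436 differences measured above the floor on both arrays. The other 56 receptor probe sets lay between -0.60 and 0.53, the ends being RXRB 215099_s_at and PPARG. With 1 probe set per gene, 1 of 24 receptor genes was higher and 0 were lower, against 0.292% and 0.378% of 12682 genes.

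In MP2-α2/CI over MP2-mock cells, which shares its MP2-mock array with the comparison above, the NR5A2 differences were 2.26 (210174_at), 1.86 (208337_s_at), 2.14 (208343_s_at) and 2.91 (1560469_at), or folds of 4.80, 3.64, 4.41 and 7.51. Here 0.236% of 29696 probe sets reached 2-fold higher and 0.256% lower. Of 57 receptor probe sets, 4 were higher, again those of NR5A2, and 0 were lower. They were the 5th, 13th, 7th and 4th highest of 28569 measured on both arrays. RXRB, an RXR of broad expression, lay on the other side, with 5.38 in MP2-α2/CI, 5.64 in MP2-α2/TC and 6.25 in MP2-mock cells by 215099_s_at, differences of -0.87 and -0.60 from MP2-mock. Of its 3 probe sets, that with the highest mean, 209148_at, differed by -0.39 in both, and none of the 3 was 2-fold apart. By gene, 1 of 24 receptors was higher and 0 were lower, against 0.262% and 0.389% of 12608 genes.

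In MP2-α2/CI over MP2-α2/TC cells, which differ in substrate, 0 of 59 receptor probe sets were at least 2-fold apart, with differences from -0.30 to 0.89. Of all 29810 probe sets, 0.0335% were higher and 0.104% lower, and of 12647 genes 0.0395% and 0.15%. NR5A2 lay at the upper end, at 0.37 (210174_at), 0.18 (208337_s_at), 0.50 (208343_s_at) and 0.89 (1560469_at). All 4 were above 0, and none reached 2-fold.

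**Figure D2:**
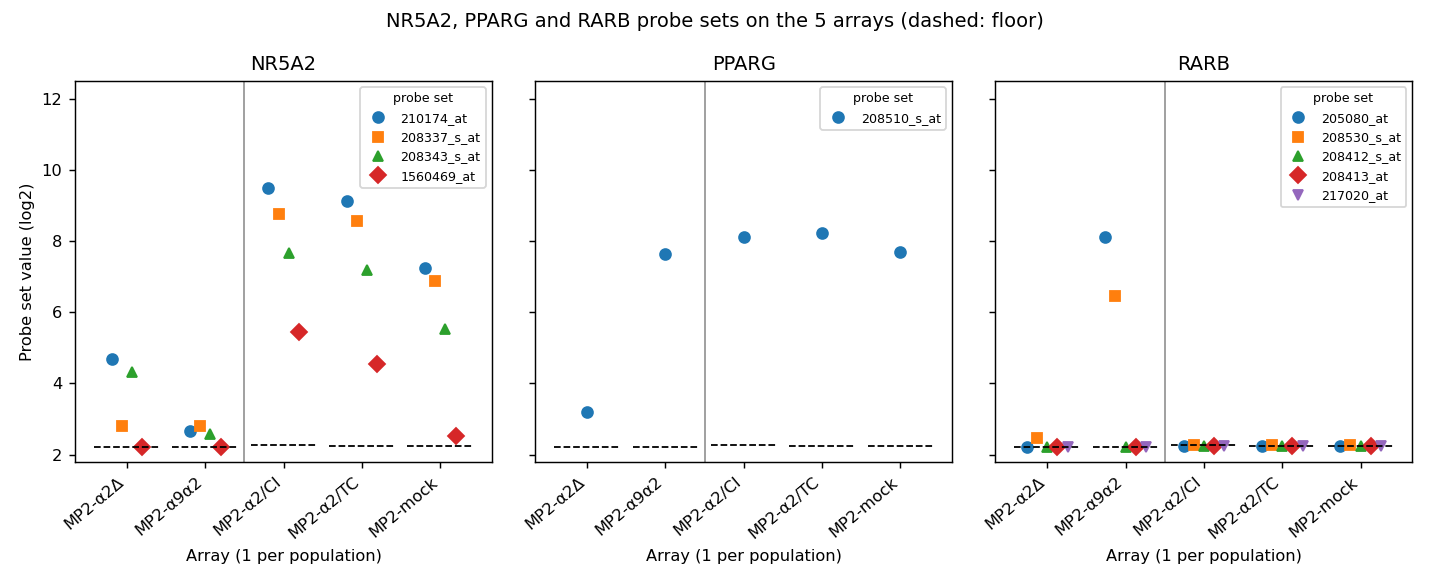
Values (log2) of each probe set of NR5A2, PPARG and RARB in the 5 populations (1 array each), with the floor of each array dashed and a vertical line between the 2 sets of arrays. The 4 NR5A2 probe sets are highest in both full-length α2 populations, PPARG lies at 3.20 in MP2-α2Δ cells alone, and 2 of 5 RARB probe sets lie at 8.11 and 6.47 in MP2-α9α2 cells alone.

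Genes known to be targets of NR5A2, and digestive enzyme genes of the exocrine pancreas, were mostly at the floor. Of 24 such genes 20 were on the array, and 12 of these, such as the carboxypeptidases CPA1 and CPB1 and the pancreatic lipase PNLIP, were above the floor on no array. CEL, the bile salt-dependent lipase and a direct NR5A2 target, read 4.68 in MP2-α2/CI, MP2-α2/TC and MP2-mock cells alike. SCARB1, the high-density lipoprotein receptor, read 11.12 in MP2-α2/CI, 11.24 in MP2-α2/TC and 11.26 in MP2-mock cells, and CCNE1 (cyclin E1) read 9.74 in MP2-α2/CI, 9.85 in MP2-α2/TC and 9.89 in MP2-mock cells. Of 8 measured genes of the list, 0 were 2-fold apart in either comparison with MP2-mock, with a median of 0.00 for MP2-α2/TC over MP2-mock. Over all genes 0.292% were higher and 0.378% lower in MP2-α2/TC cells and 0.262% and 0.389% in MP2-α2/CI cells, so that a count of 0 in a list of this size is near the background and is not a result about the list.

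The transcription factors that act with NR5A2 in acinar cells had 0 members 2-fold apart, against the same background. Of 12 on the array, 4 (RBPJL, BHLHA15, FOXA2 and FOXA3) were above the floor on no array. GATA4 read 5.86 in MP2-α2/CI, 5.83 in MP2-α2/TC and 5.59 in MP2-mock cells, and SOX9, a ductal and progenitor factor, read 11.10 on all 3 arrays by 202936_s_at. RBPJ, the Notch effector related to RBPJL, read 10.43 on all 3.

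The coregulators recruited by nuclear receptors showed 1 gene 2-fold apart from MP2-mock. NRIP1 (RIP140), a corepressor, read 2.60 in MP2-α2/CI, 2.60 in MP2-α2/TC and 3.92 in MP2-mock cells by 202599_s_at, a difference of -1.31 for each α2 population between values under 4. It was 1 of 26 measured coregulator genes, and its second probe set was not 2-fold apart. Among 12 steroid receptor chaperone genes, the cyclophilin PPID read 3.88 in MP2-α2/CI, 3.23 in MP2-α2/TC and 2.65 in MP2-mock cells by 228469_at, 1 of its 3 probe sets, which is 1.23 for MP2-α2/CI over MP2-mock, again between values under 4. Genes of retinoid supply and retinoic acid response (13 measured) and targets of glucocorticoid receptor (9) or of vitamin D and xenobiotic receptors (5) numbered 0 at least 2-fold apart in any of the 3 comparisons of the first set. So did targets of PPAR and of liver X and farnesoid X receptors, with 16 and 8 measured for MP2-α2/TC over MP2-mock. At under 0.5% of all genes in each direction, counts of 0 in these lists are likewise near the background. IGFBP4, an insulin-like growth factor binding protein listed as an estrogen target, read 4.07 in MP2-α2/CI, 5.41 in MP2-α2/TC and 4.92 in MP2-mock cells, or -1.34 for MP2-α2/CI over MP2-α2/TC.

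MP2-α2Δ and MP2-α9α2 cells differed widely, where 7.56% of 30975 probe sets reached 2-fold higher in MP2-α2Δ and 4.95% reached 2-fold lower. Of 66 receptor probe sets 4 were higher and 4 lower, with a median of 0.00, the same as over all probe sets. By gene, 2 of 26 receptors were higher and 3 lower, against 10.1% and 4.97% of 12924 genes. The members 2-fold apart were RARB, PPARG and NR2F1 on the lower side and NR5A2, PPARD and NR1H3 on the higher side.

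RARB, a retinoic acid receptor, was read at or near the floor in every population but MP2-α9α2. Its probe set 205080_at read 2.21 in MP2-α2Δ cells and 8.11 in MP2-α9α2 cells, against 2.24 in each population of the first set. The probe set 208530_s_at read 2.48 in MP2-α2Δ cells and 6.47 in MP2-α9α2 cells, against 2.26 in each of the other 3. The differences of MP2-α2Δ from MP2-α9α2 cells were -5.90, a bound because MP2-α2Δ was at the floor, and -3.99. The other 3 RARB probe sets, 208412_s_at, 208413_at and 217020_at, were at or near the floor on all arrays. The window printed above with the retinoic acid type of repeat belongs to RARB, and a relation of that repeat to these values was not tested.

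Other retinoic acid receptors and their partners were under 2-fold apart. RARA, the ubiquitous form, read 4.60 in both MP2-α2Δ and MP2-α9α2 cells by 203750_s_at and 5.42 in both by 203749_s_at. RARG, a form of epithelia, read 6.31 in both by 204189_at. RXRA differed by -0.52 by 202449_s_at and 0.00 by 202426_s_at, and THRA, a thyroid hormone receptor, by 0.18 (35846_at) and 0.71 (204100_at).

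PPARG, the receptor of fat cell differentiation, was represented by 1 probe set. It read 3.20 in MP2-α2Δ cells and 7.64 in MP2-α9α2 cells, and 8.11 in MP2-α2/CI, 8.23 in MP2-α2/TC and 7.70 in MP2-mock cells. MP2-α2Δ was the low population, at a difference of -4.44 from MP2-α9α2 cells, the 6th lowest of 30384 differences measured on both arrays. In the first set PPARG was 0.42 higher in MP2-α2/CI cells and 0.53 higher in MP2-α2/TC cells, each set against MP2-mock, and both were under 2-fold.

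Of the other fatty acid receptors, PPARD read 6.43 in MP2-α2Δ cells and 4.72 in MP2-α9α2 cells by 242218_at, a difference of 1.71. By 37152_at it read 7.84 in both, so that 1 of its 4 probe sets above the floor was 2-fold apart. PPARA, the receptor of fatty acid oxidation, read 7.49 in MP2-α2Δ cells and 7.58 in MP2-α9α2 cells by 226978_at. Its probe sets 223437_at, 223438_s_at and 1560981_a_at differed by -0.73, -0.63 and -0.90, all lower in MP2-α2Δ cells and under 2-fold.

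NR5A2 was low in both populations of the second set. The probe set 210174_at read 4.68 in MP2-α2Δ cells and 2.66 in MP2-α9α2 cells, and 208343_s_at read 4.33 in MP2-α2Δ cells and 2.58 in MP2-α9α2 cells, differences of 2.03 and 1.75. By 208337_s_at both read 2.80, and by 1560469_at both were at the floor. The 2 probe sets that separated the populations thus did so with MP2-α9α2 near the floor. With the floor set at 4 their differences were 0.68 and 0.33, and no NR5A2 probe set was 2-fold apart between these populations.

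NR1H3 (LXRα), the oxysterol receptor of cholesterol efflux, read 6.12 in MP2-α2Δ cells and 4.83 in MP2-α9α2 cells, a difference of 1.28, and 5.67 in each other population. NR2F1 differed by -1.01, lower in MP2-α2Δ cells. VDR, the vitamin D receptor, read 5.56 in MP2-α2Δ cells and 4.61 in MP2-α9α2 cells by 204254_s_at, a difference of 0.95 just under 2-fold, whereas 204255_s_at differed by 0.01. NR3C1 differed by -0.68 (201865_x_at), -0.69 (211671_s_at), -0.15 (216321_s_at) and -0.27 (201866_s_at), and by 0.10 by 232431_at, which read 2.35 in MP2-α2Δ cells and 2.25 in MP2-α9α2 cells, near the floor.

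**Figure D3:**
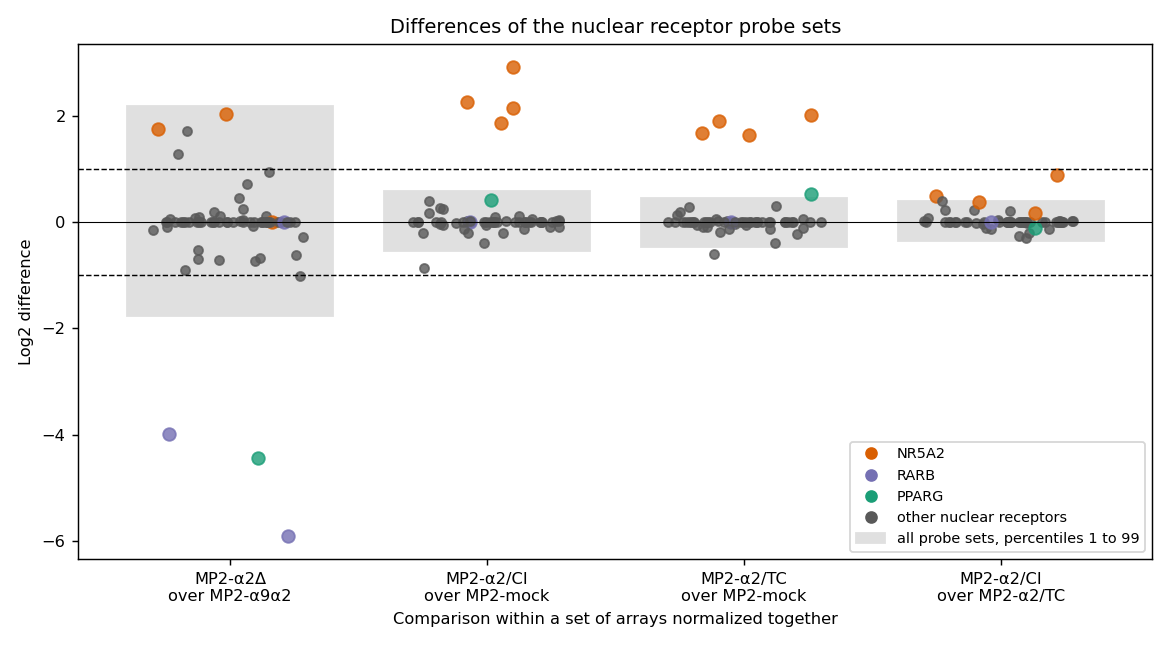
Log2 differences of the receptor probe sets above the floor on either array (points, NR5A2, RARB and PPARG coloured) in the 4 comparisons within a set, with the range from the 1st to the 99th percentile of all probe sets in grey and 2-fold dashed. NR5A2 lies above the grey range in both α2 populations over MP2-mock, while RARB and PPARG lie below it in MP2-α2Δ over MP2-α9α2 cells.

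Target genes of these receptors that were 2-fold apart in MP2-α2Δ over MP2-α9α2 lay on both sides. The lists hold 6 to 26 measured genes, so that 1 gene more or less moves a share by several percent, and their counts are a description. Of 14 measured genes of retinoid supply and retinoic acid response, 3 were higher and 2 lower, with a median of 0.00, against 10.1% higher and 4.97% lower over all 12924 genes, where the median was also 0.00. CYP26B1, which degrades retinoic acid, read 7.87 in MP2-α2Δ cells and 5.80 in MP2-α9α2 cells. DHRS3, which reduces retinaldehyde to retinol, read 6.94 in MP2-α2Δ cells and 4.97 in MP2-α9α2 cells. STRA6, the cell surface receptor of retinol binding protein, read 3.27 in MP2-α2Δ cells and 2.22 in MP2-α9α2 cells. STRA6 was apart by 1 of its 3 probe sets, between values under 4, and CYP26B1 by 1 of its 2. A relation of these genes to RARB was not tested. TGM2, a transglutaminase induced by retinoic acid, read 5.36 in MP2-α2Δ cells and 6.96 in MP2-α9α2 cells by 201042_at. It was 2-fold apart by that 1 of its 4 probe sets. The same probe set read 11.10 in MP2-α2/CI, 11.14 in MP2-α2/TC and 11.41 in MP2-mock cells. RAI14 differed by -1.57.

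Of 15 measured PPAR targets, 3 were higher and 0 lower by the probe set with the highest mean, with a median of 0.02, against 10.1% and 4.97% of all genes. UCP2, a mitochondrial carrier, read 9.36 in MP2-α2Δ cells and 6.67 in MP2-α9α2 cells by 208998_at and was also higher, by 1.79, by 208997_s_at. FABP5, a fatty acid binding protein, and ACAA1, the peroxisomal thiolase, were higher by 1.08 and 1.04. By probe sets other than that with the highest mean, CPT1A, which admits fatty acids to mitochondria, read 4.14 in MP2-α2Δ cells and 6.02 in MP2-α9α2 cells, and ANGPTL4, an inhibitor of lipoprotein lipase, read 6.28 in MP2-α2Δ cells and 7.46 in MP2-α9α2 cells. ACSL1, an acyl-CoA synthetase, differed by -1.04, also by such a probe set. These were 1 of the 4 probe sets of CPT1A and 1 of the 2 each of ANGPTL4 and ACSL1. By the probe set with the highest mean, no listed target was 2-fold lower, while PPARG was. A relation between the listed targets and PPARG was not tested.

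Of 9 measured targets of liver X and farnesoid X receptors, 1 was higher and 2 lower, with a median of -0.70, against the same 10.1% and 4.97%. The cholesterol exporter ABCA1 read 3.45 in MP2-α2Δ cells and 5.86 in MP2-α9α2 cells by 203505_at and 2.27 in MP2-α2Δ cells and 4.77 in MP2-α9α2 cells by 203504_s_at. ABCG1, a second exporter, read 2.55 in MP2-α2Δ cells and 4.40 in MP2-α9α2 cells, a difference of -1.85. These were 2 of the 4 probe sets of ABCA1 and 1 of the 4 of ABCG1. The values of 2.27 and 2.55 in MP2-α2Δ cells lay near the floor of 2.21. A relation of these genes to NR1H3 was not tested. MYLIP (IDOL), the ubiquitin ligase of the LDL receptor, was higher by 1.05 to 1.29 by 3 of its 6 probe sets, and SCD, a fatty acid desaturase, differed by -1.28 and -1.12 by 2 of its 4.

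Of 11 measured glucocorticoid receptor targets, 0 were higher and 1 lower, with a median of -0.27, against 10.1% and 4.97% of all genes. This was KLF9, a zinc-finger factor, which read 4.08 in MP2-α2Δ cells and 6.19 in MP2-α9α2 cells by 203542_s_at, and 4.77 in MP2-α2Δ cells and 8.79 in MP2-α9α2 cells by 203543_s_at. CEBPD differed by -1.10 by 213006_at, 1 of its 2 probe sets. ANGPTL4, also listed as a glucocorticoid receptor target, differed by -1.18 by 223333_s_at, 1 of its 2 probe sets. Of 8 estrogen and progesterone targets, 1 was higher and 2 lower, with a median of -0.09, against that same background. IGFBP4 read 8.80 in MP2-α2Δ cells and 4.72 in MP2-α9α2 cells, a difference of 4.08. The receptor kinase RET differed by -1.16 (205879_x_at), -3.09 (211421_s_at) and -1.07 (215771_x_at, a bound). Its 211421_s_at read 2.45 in MP2-α2Δ cells, near the floor of 2.21. CCND1 (cyclin D1) differed by -1.62 by 1 of its 2 probe sets. ESR1 and ESR2 themselves read 2.44 and 2.21 in both populations.

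**Figure D4:**
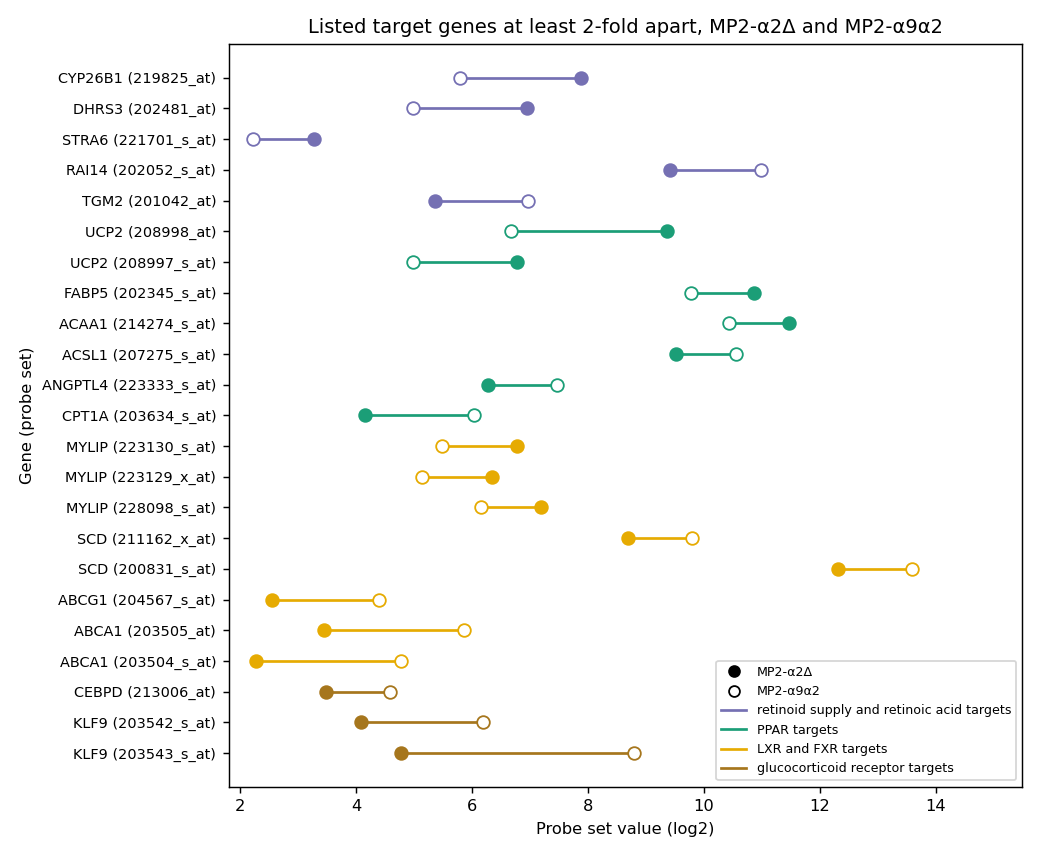
Values (log2, horizontal axis) in MP2-α2Δ (filled) and MP2-α9α2 cells (open) of the listed target probe sets that were 2-fold apart, grouped and coloured by receptor class, 1 array each. Probe sets of each of the retinoid, PPAR and liver X receptor groups lie on both sides, while those of KLF9 and CEBPD are lower in MP2-α2Δ cells. In the PPAR group, those on the lower side are not the probe sets with the highest mean of their genes. ANGPTL4, also a listed glucocorticoid receptor target, is drawn with the PPAR group.

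Of 26 measured coregulators, 1 was higher and 3 were lower in MP2-α2Δ cells, against 10.1% and 4.97% of all genes, and the list median was -0.49 against 0.00 over all genes. GPS2 and TBL1X are subunits of the corepressor complex that contains NCOR and HDAC3. GPS2 read 10.89 in MP2-α2Δ cells and 8.86 in MP2-α9α2 cells, while TBL1X read 9.43 in MP2-α2Δ cells and 10.46 in MP2-α9α2 cells by 213400_s_at and was lower by 3 of its 6 probe sets. PRDM16, a coregulator in brown fat, read 6.41 in MP2-α2Δ cells and 8.44 in MP2-α9α2 cells by 1 of its 2 probe sets. NCOA4, a coactivator that also directs ferritin to lysosomes, differed by -1.01, and NCOA2, a p160 coactivator, by -1.79 by 205732_s_at. TBL1XR1, a homologue of TBL1X, differed by -1.15 (222633_at) and -1.42 (235890_at).

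Among 13 measured clock genes, which NR1D1, NR1D2 and RORA regulate, 3 were higher and 1 lower, with a median of -0.11, against 10.1% and 4.97% of all genes. BMAL2 read 6.74 in MP2-α2Δ cells by 224204_x_at and was at the minimum of 2.21 in MP2-α9α2 cells, with 3 of 3 probe sets higher. PER2, a clock repressor, read 7.62 in MP2-α2Δ cells and 5.76 in MP2-α9α2 cells. DBP, an output factor, read 8.92 in MP2-α2Δ cells and 7.61 in MP2-α9α2 cells. PER2 and DBP were each 2-fold apart by 1 of 2 probe sets. NPAS2, a partner of BMAL1, differed by -1.08 (213462_at). NR1D2 itself differed by 0.11 (225768_at) and 0.00 (209750_at). Of 12 chaperones 2 were higher, STUB1 by 1.10 (227625_s_at) and BAG1 by 1.16 by 1 of its 3 probe sets. HSPA4 differed by -1.54 by 1 of its 4 probe sets. Of 6 vitamin D and xenobiotic receptor targets, 6 NR5A2 targets and exocrine enzymes and 8 NR5A2 partners, 0 were 2-fold apart, in lists too short for a count of 0 to be read against that background.

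Across the sets, normalization and population cannot be told apart, and the values are given mainly as counts and as percentiles of each array. In MP2-α2Δ over MP2-mock cells 30.2% of 32371 probe sets reached 2-fold higher and 6.77% lower, and in MP2-α9α2 over MP2-mock cells 31.7% of 32331 were higher and 9.52% lower. Of receptor probe sets, 19 of 71 were higher and 4 lower in MP2-α2Δ cells, and 24 of 72 were higher and 3 lower in MP2-α9α2 cells. After quantile normalization of the 5 arrays these were 10 and 8, and 14 and 9. Over all probe sets they were 4876 and 4894 of 32385 for MP2-α2Δ, and 5902 and 5624 of 32359 for MP2-α9α2. The share of higher among all 2-fold probe sets was 49.9% in place of 81.7% for MP2-α2Δ and 51.2% in place of 76.9% for MP2-α9α2. After median centring this share was 35.7% and 39.7%. Receptor probe sets then numbered 9 higher and 11 lower for MP2-α2Δ, against 4031 and 7257 of all 32371. For MP2-α9α2 they numbered 11 and 10, against 5065 and 7696 of all 32331.

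The rank of a probe set within its own array does not change with a rescaling of the whole array. A shift of single probe sets by separate processing would still move it. From MP2-mock to MP2-α2Δ cells, NR1D2 225768_at went from percentile 74.3 to 83.3 and 209750_at from 71.0 to 67.9. NR5A2 210174_at lay at percentile 62.1 of all probe sets in MP2-α2Δ cells and 54.3 in MP2-α9α2, and at 88.6 in MP2-α2/CI, 86.9 in MP2-α2/TC and 76.8 in MP2-mock cells. It was lower than in MP2-mock cells by both scales, with -2.55 as deposited and -3.32 after quantile normalization for MP2-α2Δ, and -4.58 and -4.95 for MP2-α9α2. PPARG lay at percentile 56.9 in MP2-α2Δ cells and 74.7 in MP2-α9α2 cells, and at 81.5 in MP2-α2/CI, 82.2 in MP2-α2/TC and 79.3 in MP2-mock cells. It differed from MP2-mock by -4.49 as deposited and -5.01 after quantile normalization in MP2-α2Δ cells, and by -0.05 and -0.85 in MP2-α9α2 cells. RARB 205080_at lay at percentile 77.2 in MP2-α9α2 cells, at least 5.86 above MP2-mock as deposited and 5.39 after quantile normalization.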

How the data were processed

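Total RNA (100 ng) of each of the 5 populations was labelled for Affymetrix arrays. The authors deposited 1 normalized log2 value per probe set and array, where the base was inferred from the range of 2.21 to 16.28. GCRMA and MAS5 appear in the processing notes of the submitters with no role or version. Sets of arrays normalized together were inferred from a common minimum, since their grouping is not stated.

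Of 54675 probe sets, 62 controls were left out. The platform annotation gave 1 symbol for 41091 of the rest, several for 1801 and none for 11721, and 41037 symbols were brought up to date by gene identifier through a RefSeq table. The 95th percentile of the odorant receptor probe sets served as the floor of an array, lower values were set to the floor, and log2 differences were taken for 6 pairs of arrays, 4 within and 2 across the sets. Probe sets above the floor on either array counted as measured, and those at least 2-fold apart were counted. For lists of genes the probe set with the highest mean stood for each gene. Counting was tested on simulated data.

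The members and gene lists were chosen with earlier results of these data known. The genes named were all of NR5A2, RARB and PPARG, members 2-fold apart within a set, up to 12 members with the highest values, and up to 6 listed genes 2-fold apart per list, with further members named beside them after their values were seen. Alternatives were another floor or none, other normalization, folds of 1.5 and 3, and other choices of probe sets. Protein features of the members were not analysed here. Python 3.11.15, numpy 2.4.6, pandas 2.3.3 and matplotlib 3.10.9 were used.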

Additional observations from a re-analysis of the deposited data

How the results depend on the processing

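With 1 array per population, the error of a value could not be estimated. Without probe sets whose names end in _x_at or _s_at, the receptor probe sets at least 2-fold apart numbered 2 in place of 4 each for MP2-α2/TC and MP2-α2/CI over MP2-mock. Such probe sets numbered 5 in place of 8 for MP2-α2Δ over MP2-α9α2, 9 in place of 23 for MP2-α2Δ over MP2-mock and 12 in place of 27 for MP2-α9α2 over MP2-mock. With 1 probe set per gene these counts were 1, 1, 5, 10 and 12 in the same order, since fewer probe sets were counted. At 1.5-fold, MP2-α2Δ over MP2-α9α2 gave 16 in place of 8 and MP2-α2/CI over MP2-α2/TC gave 1 in place of 0, an NR5A2 probe set. At 3-fold, MP2-α2Δ over MP2-mock gave 14 in place of 23. The other 38 alternative counts, including 20 or 21 in place of 27 receptors above a higher floor, stayed within 1.5 times. Of 150 alternative values for 40 differences of NR5A2, RARB and PPARG probe sets, 32 moved by over 1.5-fold. Of 22 differences of at least 2-fold 0 changed sign, and 3 of their 88 alternative values were under 2-fold, all NR5A2 with the floor at 4: 1560469_at for MP2-α2/TC over MP2-mock (0.55 in place of 2.02), and 210174_at and 208343_s_at for MP2-α2Δ over MP2-α9α2 (0.68 in place of 2.03 and 0.33 in place of 1.75). No paired analysis was possible because each population has 1 array. Probe sets near the floor, such as 1560469_at of NR5A2 in MP2-mock cells, carry the least certain folds.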

Other observations

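The probe sets that NR1D1 and THRA share were left out of the counts because they name no single gene. Those above the minimum differed across the sets from the brighter probe sets of THRA alone, 35846_at and 204100_at. NR1D1 (REV-ERBα) is a heme-binding clock repressor encoded on the strand opposite THRA, and the ends of these genes overlap. The shared probe set 31637_s_at read 7.07 in MP2-α2Δ cells and 6.99 in MP2-α9α2 cells, and 9.41 in each of MP2-α2/CI, MP2-α2/TC and MP2-mock cells. The shared 204760_s_at read 4.99 in MP2-α2Δ cells and 5.03 in MP2-α9α2 cells and 6.02 in each of the other 3. Both were thus lower in the second set of arrays. In contrast, THRA 35846_at read 7.89 in MP2-α2Δ cells and 7.71 in MP2-α9α2 cells against 5.01 in each of the others. THRA 204100_at read 6.41 in MP2-α2Δ cells and 5.71 in MP2-α9α2 cells against 4.11 in each of the others. THRA 214883_at and 1316_at stayed near the floor, at 2.63 and 2.23 in the second set and 2.36 and 2.24 in the first. The shared 217476_at was at the minimum on all 5 arrays. The sets were normalized apart, and 31637_s_at lay at percentile 71.7 in MP2-α2Δ cells and 71.5 in MP2-α9α2 cells, against 88.2 on each array of the first set.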
